A study of Mus musculus with 17 samples.

Results

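Nfat5 and 5 genes that bring osmolytes into the cell or make them were followed across 17 RNA-seq libraries of mouse bone marrow-derived macrophages, cells grown from bone marrow into a macrophage culture. The 6 genes were taken by name from a table of 55401 gene identifiers: Nfat5, Slc5a3, Slc6a12, Slc6a6, Akr1b3 and Slc38a2. All 6 were found, and all 6 passed the low-count filter in each fit.

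When the fluid around a cell becomes hypertonic, water leaves the cell and its salts become concentrated. Cells answer by gathering organic osmolytes, small solutes such as myo-inositol, betaine, taurine, sorbitol and neutral amino acids that restore volume without disturbing proteins. NFAT5, also called TonEBP, is the transcription factor best known for this programme: it binds a DNA motif called the tonicity-responsive enhancer (TonE) and drives the transporters and enzymes that supply osmolytes, first described in kidney medulla and later also studied in macrophages of salt-loaded skin.

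Cells of the C57BL/6J strain received medium conditioned by B16F10 melanoma cells with added KCl (3 libraries) or NaCl (2 libraries), with each salt at 40 mM at the end and a treatment of 6 hours. Cells that were Lyz2-Cre-Kcnj2f/f (3 libraries) or Kcnj2f/f (3 libraries) received conditioned medium with KCl labelled isotonic, and their background strain and the way isotonicity was reached are not stated in the labels. Kcnj2f/f is a floxed allele of the inward rectifier potassium channel gene Kcnj2, and Lyz2-Cre is a driver active in myeloid cells. C57BL/6J cells with conditioned medium alone (3 libraries) and a control group (3 libraries), whose treatment is not described further, complete the set. The medium with added salt is called hypertonic here in contrast to the isotonic label, and no measured osmolality is given. Ages of the mice are not given in the labels. In every comparison of an isotonic group with a C57BL/6J group, treatment and strain or floxed allele cannot be told apart.

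Library totals ran from 13503869 to 19391623 counts. All 12 macrophage markers checked were detected in every group. Of 10 melanocyte genes checked, Tyr, Dct, Slc45a2, Oca2 and Gpr143 were at 0 counts in all 17 libraries, which allows up to 3 counts in each. The others had counts. Mitf averaged 69.8 CPM in control cells and 155 to 231 CPM in the groups with conditioned medium. Pmel, Mlana, Sox10 and Tyrp1 had at most 24, 8, 5 and 2 counts in a library. Kcnj2, the targeted gene, had 19.7 to 29.4 CPM (counts scaled to library size, with TMM factors) in Lyz2-Cre-Kcnj2f/f cells, against 139 to 173 CPM in Kcnj2f/f cells, a log2 fold change of -2.64 (SE 0.19, edgeR adjusted p = 0.015). Libraries also differed in how their levels depended on transcript length. This length slope, the change in log2 CPM per doubling of transcript length relative to the other libraries, was -0.11 to 0.01 with KCl, 0.08 to 0.14 with NaCl, from -0.18 to -0.03 in Lyz2-Cre-Kcnj2f/f cells, from -0.19 to 0.13 in Kcnj2f/f cells, from 0.04 to 0.11 with conditioned medium alone and from 0.07 to 0.13 in control cells. Among the Kcnj2f/f libraries, replicate 1 stood at 0.13 and replicates 2 and 3 at -0.19 and -0.10. Nfat5 and Slc6a6, with transcripts of 13380 and 6186 bases, are given with and without this slope as a covariate where it changes a call or a direction. The Slc5a3 transcript is also long, at 10913 bases. Its levels were 22.9 CPM in Kcnj2f/f replicate 1 and 28.1 CPM in replicate 2.

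Of the 6 genes, 5 were higher with hypertonic KCl than with isotonic KCl in Kcnj2f/f cells, and 4 with hypertonic NaCl. Slc5a3 and Akr1b3 rose most with KCl, Slc5a3 and Slc6a12 with NaCl, and Slc38a2 passed the test with KCl but not with NaCl. The members' median log2 fold change was 0.90 with KCl, against 0.00 over all 14676 genes tested, and 1.23 with NaCl, against -0.01 over all genes. Over all genes, 12.3% were called higher with KCl than with isotonic KCl (27.8% in either direction), and 8.58% with NaCl (19.3% in either direction), while 15.4% and 10.7% were called lower. In a fit of the 2 groups alone, none of the 6 passed for NaCl, with edgeR adjusted p of 0.0514 for Slc5a3, Slc6a12 and Akr1b3 at the same log2 fold changes. Both comparisons share the 3 Kcnj2f/f libraries. In whole cultures, fewer cells of a kind and less RNA per cell cannot be told apart.

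**Figure D1:**
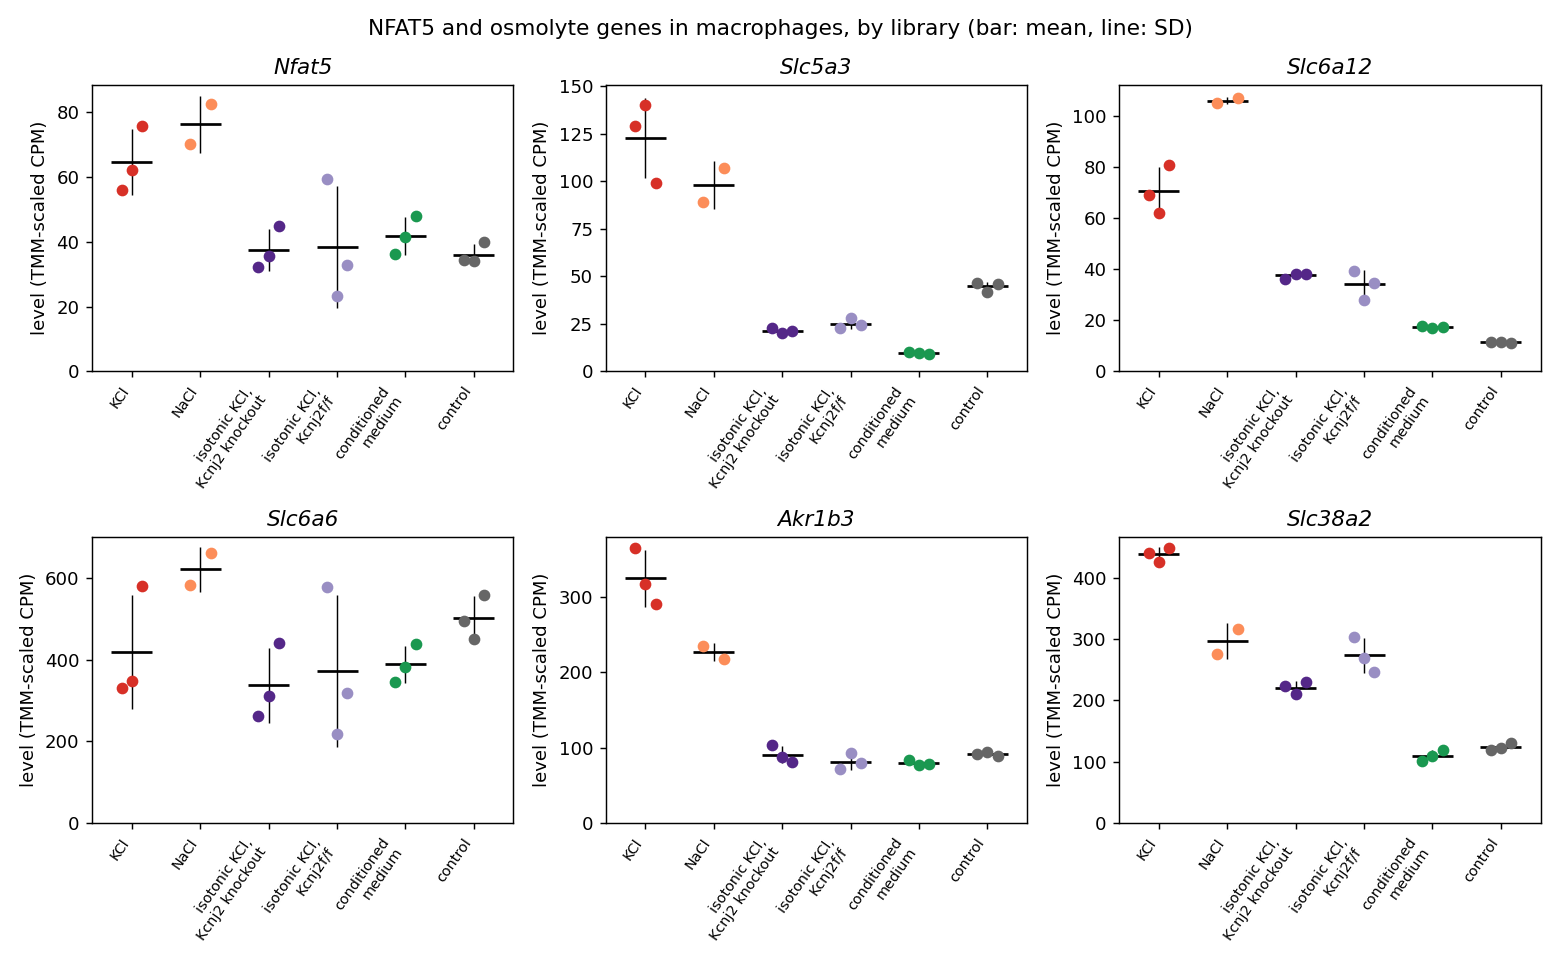
Level of each of the 6 genes in each library, in CPM on a linear axis from 0, by group, where Kcnj2 knockout stands for Lyz2-Cre-Kcnj2f/f. Points are libraries, bars are group means and vertical lines are SD. Slc5a3, Slc6a12 and Akr1b3 lie higher in every KCl and NaCl library than in every isotonic library, while Nfat5 and Slc6a6 libraries of the KCl and Kcnj2f/f groups overlap.

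Nfat5 itself, on chromosome 8 at 107293470-107379517 (plus strand, GRCm38), encodes the transcription factor. Its level was 56.1, 62.0 and 75.7 CPM with KCl and 70.0 and 82.5 CPM with NaCl, against 59.4, 23.1 and 32.7 CPM in Kcnj2f/f cells with isotonic KCl. Both NaCl libraries stood above all Kcnj2f/f libraries, while the first Kcnj2f/f library reached into the KCl range. The log2 fold change was 0.75 with KCl (SE 0.25, edgeR adjusted p = 0.0372) and 0.99 with NaCl (SE 0.27, edgeR adjusted p = 0.0213). The KCl call was lost without KCl library 2 (edgeR adjusted p = 0.0544) or 3 (0.101), without Kcnj2f/f library 2 (0.0911) or 3 (0.117), with total-count scaling (0.107), with no low-count filter (0.15) and in a fit of the 2 groups alone (0.203). The NaCl call was lost without NaCl library 1 (edgeR adjusted p = 0.0654) or 2 (0.179), without Kcnj2f/f library 2 (0.0547) or 3 (0.078), with no filter (0.0827) and in a fit of the 2 groups alone (0.237), and the log2 fold changes without 1 library ran from 0.51 to 1.21 for KCl and from 0.73 to 1.45 for NaCl.

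The Nfat5 levels moved with the length slope of the libraries: the Kcnj2f/f library with the highest slope had the highest Nfat5 level. With the slope as a covariate the log2 fold change was 0.87 with KCl (edgeR adjusted p = 7.44e-10) and 0.44 with NaCl (edgeR adjusted p = 0.00145), both still higher than isotonic KCl. The slope was computed from the same counts, and KCl and NaCl libraries did not overlap in it. In any comparison, adjusting for it could therefore also remove or add differences between treatments. Against conditioned medium alone, at 36.1, 41.3 and 47.9 CPM, Nfat5 rose in the same libraries by a log2 fold change of 0.62 with KCl (SE 0.13, edgeR adjusted p = 0.00136) and 0.87 with NaCl (SE 0.14, edgeR adjusted p = 4.97e-04). There, neither salt group overlapped the medium-alone libraries, though the KCl call missed the threshold when all 17 libraries were fitted together (edgeR adjusted p = 0.0515). Control libraries had 34.2, 34.0 and 39.9 CPM.

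**Figure D2:**
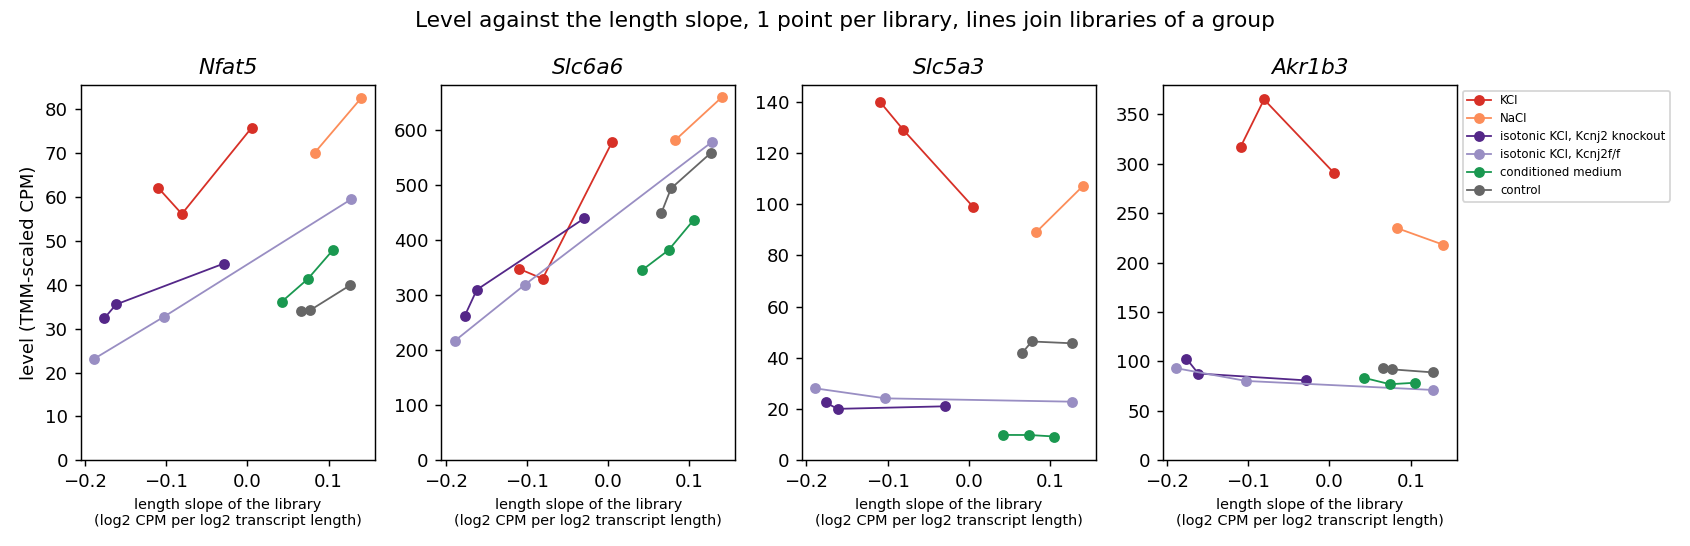
Level of Nfat5, Slc6a6, Slc5a3 and Akr1b3 in each library, in CPM on a linear axis from 0, against the length slope of that library in log2 CPM per doubling of transcript length, with lines joining libraries of a group. The Kcnj2f/f library at a slope of 0.13 has 59.4 CPM of Nfat5 and 578 CPM of Slc6a6, and the Kcnj2f/f library at -0.19 has 23.1 and 217 CPM. In the same libraries Slc5a3 has 22.9 and 28.1 CPM and Akr1b3 has 71.2 and 93.2 CPM.

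Slc5a3, the sodium-coupled myo-inositol importer SMIT1, lies on chromosome 16 at 92058322-92087473 (plus strand, GRCm38). It had 129, 140 and 99.0 CPM with KCl and 89.0 and 107 CPM with NaCl, against 22.9, 28.1 and 24.2 CPM in Kcnj2f/f cells with isotonic KCl. Every hypertonic library thus lay above every isotonic one. The rise was 4.90-fold with KCl (log2 fold change 2.29, SE 0.13, edgeR adjusted p = 1.11e-08) and 3.91-fold with NaCl (1.97, SE 0.14, edgeR adjusted p = 4.25e-07). Conditioned medium alone gave the lowest level of all groups, at 9.92, 9.90 and 9.31 CPM, and control cells had 46.4, 41.9 and 45.7 CPM. Isotonic KCl was therefore above medium alone (log2 fold change 1.37, SE 0.13, edgeR adjusted p = 9e-06) and, by its values and with no test, below control.

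Exons of Slc5a3 overlap those of Mrps6, a mitochondrial ribosomal protein gene on the same strand, so reads of the shared part could have been counted for either gene or dropped, and the Slc5a3 values are uncertain to that extent. Mrps6 had 131, 115 and 111 CPM with KCl and 70.7 and 70.6 CPM with NaCl, against 24.7, 39.8 and 34.9 CPM in Kcnj2f/f cells. It was thus also higher in all hypertonic libraries, with a log2 fold change of 1.85 with KCl (edgeR adjusted p = 7e-07) and 1.09 with NaCl (edgeR adjusted p = 5.31e-04). Its part in the Slc5a3 result was not tested.

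Slc6a12, the betaine and GABA transporter BGT1, lies on chromosome 6 at 121343076-121365775 (plus strand, GRCm38). It had 69.2, 62.0 and 80.7 CPM with KCl and 105 and 107 CPM with NaCl, against 39.5, 28.0 and 34.6 CPM in Kcnj2f/f cells. The 3 groups did not overlap, and NaCl libraries were the highest. The log2 fold change was 1.05 with KCl (SE 0.12, edgeR adjusted p = 8.59e-06) and 1.63 with NaCl (SE 0.13, edgeR adjusted p = 1.21e-06). Isotonic KCl was itself 1.96-fold above conditioned medium alone, at 17.8, 16.9 and 17.5 CPM (log2 fold change 0.97, SE 0.12, edgeR adjusted p = 7.49e-05). Control libraries were lowest, at 11.5, 11.4 and 11.3 CPM.

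The Slc6a12 promoter is shown because betaine transport is a textbook NFAT5 output and this gene held the single TonE match among the members. RefSeq windows of 300 bases on GRCm38.p6 (250 before to 50 after a transcript start) were available for 4 of the 6 members, 8 windows in all, 5 of them for Slc6a12. Both strands were searched for the TonE consensus, for its core TGGAAA, which overlaps it, and for TGATGNAA, the core of the amino acid response element. The TonE consensus matched once, from -75 to -65 of the most upstream Slc6a12 start, and no other window of Slc6a12, Slc5a3, Nfat5 or Slc38a2 held any of the motifs. Of the 32851 windows searched, which left out a part of the genome, 4.96% held the TonE consensus, 21.4% the core TGGAAA and 3.97% TGATGNAA. The bases before that Slc6a12 start are given below with the TonE match in capitals, beside bases before the start of Slc5a3, the member that rose most, which hold no match and no capitals. A match is a description of letters, and a window without one says nothing of the factor.
Slc6a12, chr6:121342454-121342573, plus strand: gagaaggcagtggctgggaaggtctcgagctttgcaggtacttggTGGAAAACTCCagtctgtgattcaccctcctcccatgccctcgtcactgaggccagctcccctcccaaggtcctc
Slc5a3, chr16:92058132-92058266, plus strand: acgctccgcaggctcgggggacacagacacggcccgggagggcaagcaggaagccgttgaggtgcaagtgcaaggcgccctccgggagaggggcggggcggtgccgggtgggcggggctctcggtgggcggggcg

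Slc6a6, the taurine transporter TauT, lies on chromosome 6 at 91684053-91759066 (plus strand, GRCm38). It had 330, 348 and 579 CPM with KCl and 582 and 660 CPM with NaCl, against 578, 217 and 319 CPM in Kcnj2f/f cells. The KCl and Kcnj2f/f libraries overlapped over most of their range, and the lower NaCl library lay just above the highest Kcnj2f/f library. Neither difference passed the test: the log2 fold change was 0.17 with KCl (95% interval -0.45 to 0.80, edgeR adjusted p = 0.717) and 0.74 with NaCl (95% interval 0.05 to 1.43, edgeR adjusted p = 0.114). The KCl direction turned to -0.11 without KCl library 3 and to -0.08 without Kcnj2f/f library 2, while the NaCl difference passed without Kcnj2f/f library 1 (1.21, edgeR adjusted p = 0.00375). With the length slope as a covariate, Slc6a6 was called higher with KCl than with isotonic KCl (log2 fold change 0.28, edgeR adjusted p = 0.00467).

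Akr1b3, the aldose reductase that turns glucose into sorbitol, lies on chromosome 6 at 34302434-34317478 (minus strand, GRCm38). It had 365, 317 and 291 CPM with KCl and 235 and 218 CPM with NaCl, against 71.2, 93.2 and 80.3 CPM in Kcnj2f/f cells. The lowest hypertonic library was far above the highest isotonic one. The rise was 3.98-fold with KCl (log2 fold change 1.99, SE 0.12, edgeR adjusted p = 1.69e-08) and 2.78-fold with NaCl (1.47, SE 0.12, edgeR adjusted p = 3.84e-06). Conditioned medium alone gave 83.5, 77.0 and 78.5 CPM and control cells 92.0, 93.7 and 89.0 CPM, both within or close to the isotonic range. Isotonic KCl and medium alone did not differ beyond their spread, with a log2 fold change of 0.03 (95% interval -0.21 to 0.27, edgeR adjusted p = 0.862).

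Slc38a2, the sodium-coupled neutral amino acid transporter SNAT2, lies on chromosome 15 at 96687392-96699730 (minus strand, GRCm38) and responds in many cells both to hypertonic medium and to amino acid shortage. It had 441, 426 and 448 CPM with KCl and 276 and 317 CPM with NaCl, against 303, 270 and 247 CPM in Kcnj2f/f cells. KCl libraries stood clear of isotonic KCl (log2 fold change 0.68, SE 0.09, edgeR adjusted p = 5.84e-05), whereas NaCl libraries overlapped it (0.12, 95% interval -0.10 to 0.33, edgeR adjusted p = 0.427). Isotonic KCl was 2.49-fold above conditioned medium alone, which had 102, 109 and 119 CPM (log2 fold change 1.31, SE 0.09, edgeR adjusted p = 5.21e-07). Control libraries had 119, 123 and 130 CPM and overlapped medium alone.

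**Figure D3:**
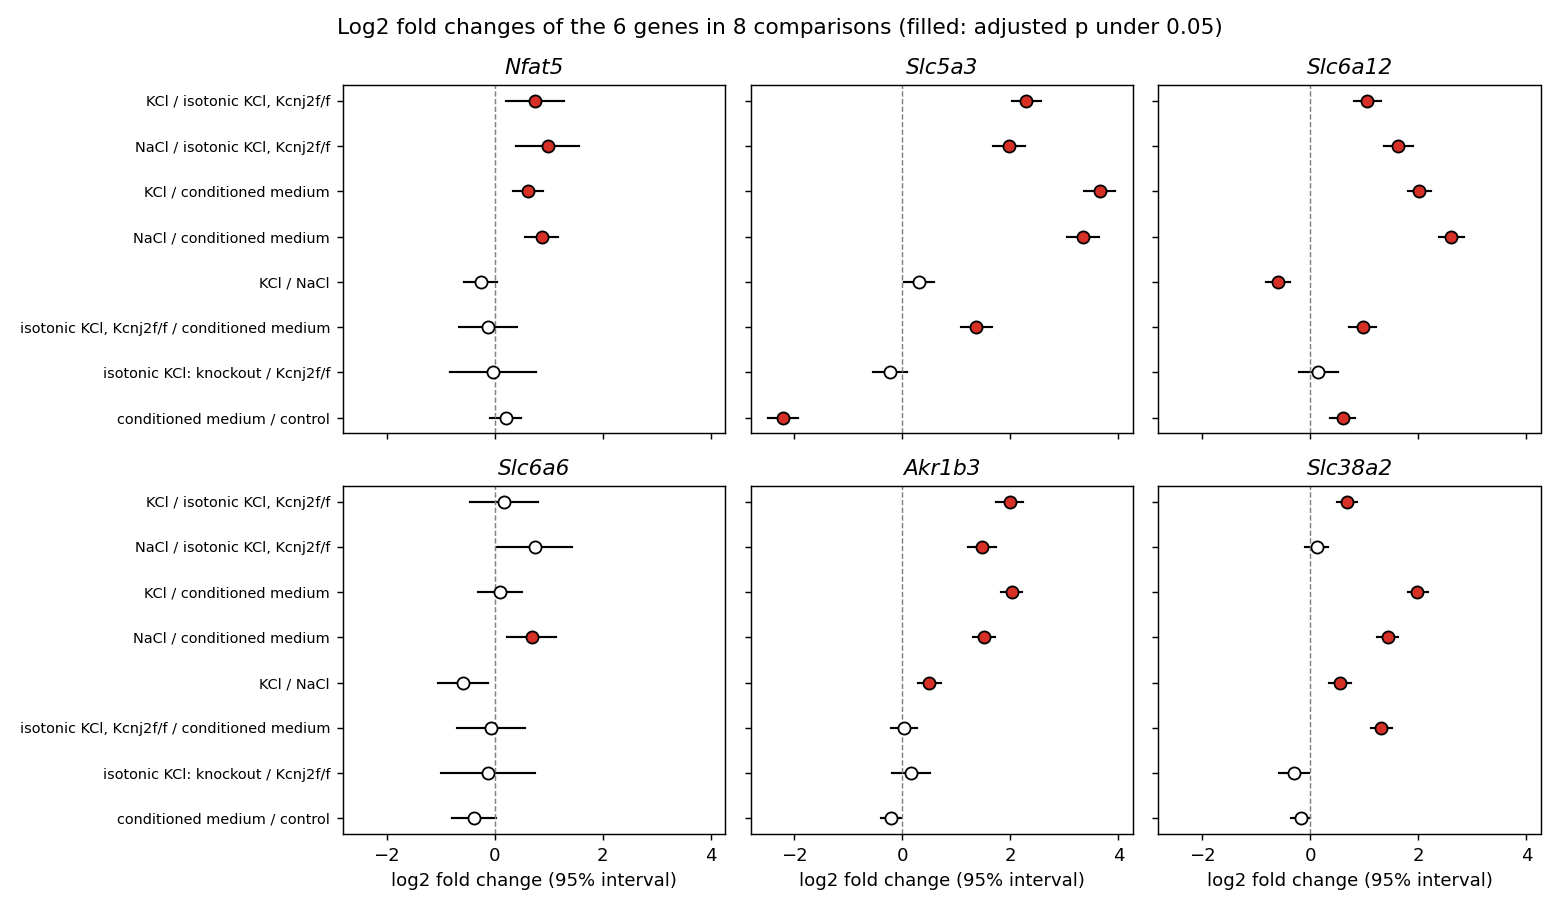
Log2 fold change of each of the 6 genes in each comparison, with 95% intervals, from edgeR; filled points passed an adjusted p of 0.05. Slc5a3 and Akr1b3 lie near 2 with KCl against isotonic KCl, and Akr1b3 lies at 0.03 for isotonic KCl against conditioned medium alone.

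Kcnj2f/f cells with isotonic KCl were also set against C57BL/6J cells with conditioned medium alone, where KCl and strain or floxed allele cannot be told apart. Slc5a3, Slc6a12 and Slc38a2 were higher, 3 of 6 members against 8.20% of all genes called higher and 7.09% called lower (15.3% in either direction), while Nfat5, Slc6a6 and Akr1b3 did not pass the test. Of all called genes, 53.6% were higher, and 26.1% with total-count scaling. Nfat5 gave a log2 fold change of -0.12 (95% interval -0.65 to 0.42) and Slc6a6 of -0.06 (95% interval -0.69 to 0.56). These 2 values moved with the libraries and the covariate used. Without Kcnj2f/f library 1 Nfat5 was called lower (-0.58, edgeR adjusted p = 0.0202). With the length slope as a covariate Nfat5 (0.28, edgeR adjusted p = 0.0185) and Slc6a6 (0.42, edgeR adjusted p = 0.00133) were called higher. Of the 6, Akr1b3 thus had a clear rise with either hypertonic salt and a narrow interval around no difference with isotonic KCl. Its isotonic value also changed sign, from -0.06 to 0.12 without 1 library, and was negative with the covariate and with total-count scaling.

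Against conditioned medium alone in C57BL/6J cells, where strain is shared, KCl raised 5 of 6 members and NaCl all 6. Of all genes, 26.6% were called higher and 27.4% lower with KCl (53.9% in either direction) and 13.7% with NaCl (28.7% in either direction), so the count with KCl stands against a broad background. Of all called genes, 49.3% were higher with KCl and 48.0% with NaCl, and 32.6% and 37.0% with total-count scaling. The median of the members was 2.0 with KCl and 1.48 with NaCl, against -0.01 over all genes in each. The rises were 12.5-fold with KCl and 10.1-fold with NaCl for Slc5a3, 4.04-fold and 6.11-fold for Slc6a12, 4.04-fold and 2.85-fold for Akr1b3, and 3.96-fold and 2.71-fold for Slc38a2. Slc6a6 differed by a log2 fold change of 0.10 with KCl (95% interval -0.31 to 0.51, edgeR adjusted p = 0.678) and rose by 0.69 with NaCl (SE 0.21, edgeR adjusted p = 0.0272). That NaCl call was lost without NaCl library 1 (edgeR adjusted p = 0.0686) or 2 (0.185), or medium-alone library 1 (0.0843) or 2 (0.0659), and with total-count scaling (0.0636), whereas with the length slope as a covariate Slc6a6 was called higher with KCl too (0.87, edgeR adjusted p = 1.2e-05).

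Between the hypertonic salts, each at 40 mM, the genes differed in direction. KCl gave higher Akr1b3 (log2 fold change 0.50, SE 0.10, edgeR adjusted p = 0.00342) and Slc38a2 (0.55, SE 0.09, edgeR adjusted p = 0.002) than NaCl, and lower Slc6a12 (-0.60, SE 0.10, edgeR adjusted p = 0.00208). That is 2 members higher and 1 lower, beside 15.4% of all genes called higher and 16.2% called lower (31.6% in either direction). Of all called genes, 48.6% were higher, and 30.1% with total-count scaling. Slc5a3 (0.31, edgeR adjusted p = 0.085), Nfat5 (-0.26, edgeR adjusted p = 0.188) and Slc6a6 (-0.58, edgeR adjusted p = 0.0502) did not pass. With the length slope as a covariate these 3 values turned, to -0.02 for Slc5a3, 0.43 for Nfat5 and 0.42 for Slc6a6, and none of the 3 was called. All 6 were called without KCl library 3, 1 with the length slope as a covariate (Slc38a2), and none in a fit of these 5 libraries alone, where edgeR adjusted p was 0.0677 for Slc6a12, 0.0735 for Akr1b3 and 0.0668 for Slc38a2. The Akr1b3 call was also lost without NaCl library 2 (edgeR adjusted p = 0.058).

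Conditioned medium alone moved Slc5a3 and Slc6a12 in opposite directions relative to control cells. Slc5a3 fell to 9.71 ± 0.348 CPM with conditioned medium, against 44.7 ± 2.44 CPM in control cells (SD, n = 3 each), a log2 fold change of -2.21 (SE 0.13, edgeR adjusted p = 7.54e-09). Slc6a12 rose to 17.4 ± 0.427 CPM, against 11.4 ± 0.0921 CPM in control cells (SD, n = 3 each), a log2 fold change of 0.60 (SE 0.10, edgeR adjusted p = 2.62e-04) that was 0.26 and not called with total-count scaling (edgeR adjusted p = 0.0891). So 2 of 6 members were called, beside 53.5% of all genes, 27.2% higher and 26.4% lower. Of all called genes, 50.8% were higher, and 24.9% with total-count scaling. Nfat5 (0.21, edgeR adjusted p = 0.204; -0.13 with total-count scaling), Slc6a6 (-0.38, 0.113), Akr1b3 (-0.21, 0.0586) and Slc38a2 (-0.18, 0.0879) did not pass. With the length slope as a covariate all 6 were called.

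Between the isotonic groups, Lyz2-Cre-Kcnj2f/f against Kcnj2f/f, edgeR called 0 of the 6 members, beside 0.0156% of all genes (2 of 12782, 0.00782% in each direction). Slc38a2 had 223, 210 and 230 CPM in Lyz2-Cre-Kcnj2f/f cells, against 303, 270 and 247 CPM in Kcnj2f/f cells. These ranges did not overlap, but the log2 fold change of -0.30 (95% interval -0.58 to -0.03) was not called (edgeR adjusted p = 0.785). Slc38a2 was the 1 member with an unadjusted p under 0.05. DESeq2 also called 0 of the 6, and 177 genes in all. Slc5a3 had 22.6, 20.1 and 21.1 CPM in Lyz2-Cre-Kcnj2f/f cells, against 22.9, 28.1 and 24.2 CPM in Kcnj2f/f cells, and the 95% interval of its log2 fold change was -0.55 to 0.09. The intervals were -0.21 to 0.51 for Slc6a12 and -0.20 to 0.51 for Akr1b3, and wider for Nfat5 (-0.82 to 0.77) and Slc6a6 (-1.0 to 0.74). With the length slope as a covariate, 2 members were called, Slc38a2 lower (-0.26, edgeR adjusted p = 0.00432) and Nfat5 higher (0.29, edgeR adjusted p = 0.0495), and Slc6a6 turned to 0.21 (edgeR adjusted p = 0.0539). For the other members the levels in Lyz2-Cre-Kcnj2f/f cells were 32.3 to 44.8 CPM for Nfat5, 36.2 to 38.3 CPM for Slc6a12, 263 to 440 CPM for Slc6a6 and 80.9 to 103 CPM for Akr1b3.

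Across all 6 groups the order of the levels differed between genes. Nfat5 was highest with NaCl and KCl, which overlapped each other, and the 4 remaining groups overlapped their neighbours. Slc5a3 ran from KCl and NaCl, which overlapped, through control, Kcnj2f/f, Lyz2-Cre-Kcnj2f/f and conditioned medium alone, which did not overlap in that order. Slc6a12 ran from NaCl to KCl, the overlapping isotonic groups, conditioned medium alone and control. Slc6a6 was highest with NaCl, and the other groups overlapped along the order. Akr1b3 ran from KCl to NaCl and then to the other 4 groups, each overlapping the next. Slc38a2 ran from KCl to NaCl and Kcnj2f/f, which overlapped, then to Lyz2-Cre-Kcnj2f/f, and to control and conditioned medium alone, which overlapped. Per kilobase of transcript, the level with KCl was highest for Akr1b3, at 234 ± 27.2 CPM per kb, and lowest for Nfat5, at 4.83 ± 0.752 CPM per kb (SD, n = 3 each).

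Other genes were ranked by how closely their 6 group means, as centred log2(CPM + 0.5), followed each member, by root mean square difference over the 6 groups. For Nfat5 these were Baz2b (0.08), Txlng (0.10) and Khdc4 (0.10), and for Slc6a6 they were Aars2 (0.07), Dym (0.09) and Dclre1c (0.09). For Slc5a3 they were Gfod1 (0.42), Shb (0.43) and the overlapping Mrps6 (0.54). For Slc6a12 they were Flrt3 (0.22), Comp (0.29) and Prdx6 (0.29), for Akr1b3 Cry2 (0.22), Nadk2 (0.24) and Hipk1 (0.24), and for Slc38a2 Slc30a1 (0.16), Klf9 (0.18) and Rpain (0.19). These are the nearest of 10060 genes. Between members the difference ran from 0.33 for Nfat5 and Slc6a6 to 1.09 for Slc5a3 and Slc6a6. It was 0.97 for Nfat5 and Slc5a3.

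A list of 20 other genes reported as NFAT5 targets in various tissues, of which 17 were tested against isotonic KCl, did not move as a block. With KCl 4 rose and 2 fell, beside 12.3% of all genes called higher and 15.4% lower. With NaCl 4 rose and 1 fell, beside 8.58% and 10.7% of all genes. With both salts the genes that rose were the inducible HSP70 genes Hspa1b (log2 fold change 2.77 with KCl and 3.07 with NaCl) and Hspa1a (1.97 and 2.44), the organic anion transporter Slco4a1 (2.09 and 2.04) and the HSP110-family chaperone Hspa4l (0.88 and 1.16). Hspa1a and Hspa1b are near-identical copies whose reads may be split between them. They averaged 1.4 and 3.06 CPM in Kcnj2f/f cells, against 4.48 and 9.5 CPM with conditioned medium alone. Against medium alone, Hspa1a was 0.29 with KCl and not called (edgeR adjusted p = 0.2), and 0.78 with NaCl (edgeR adjusted p = 0.00837). Hspa1b was 1.15 with KCl and 1.46 with NaCl in that comparison, both called. The cytokine Tnf fell with KCl (-0.75) and NaCl (-0.29), and the siderophore-binding protein Lcn2 fell with KCl (-1.89). The list's median was 0.21 with KCl and 0.13 with NaCl, against 0.00 and -0.01 over all genes. The single NaCl fall ended with total-count scaling and in several fits without 1 library, and 1 gene was called with NaCl in a fit of the 2 groups alone.

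Against conditioned medium alone, 9 of the 16 tested targets rose and 4 fell with KCl, and 8 rose and 2 fell with NaCl, led by Slco4a1 (3.62 with KCl and 3.58 with NaCl) and the kinase Sgk1 (1.69 and 1.21). Over all genes 26.6% were called higher and 27.4% lower with KCl, and 13.7% and 14.9% with NaCl. In Kcnj2f/f cells with isotonic KCl, 4 of 17 were higher and 3 lower, beside 8.20% and 7.09% of all genes, and the leading genes went apart. Sgk1 (1.48) and Slco4a1 (1.54) were higher and Hspa1b (-1.62) and Hspa1a (-1.67) lower than with medium alone. Conditioned medium against control raised 9 and lowered 4, beside 27.2% and 26.4% of all genes, led by Tnf (6.75), Ccl2 (3.54), Lcn2 (5.01) and Hmgcs1 (1.16).

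**Figure D4:**
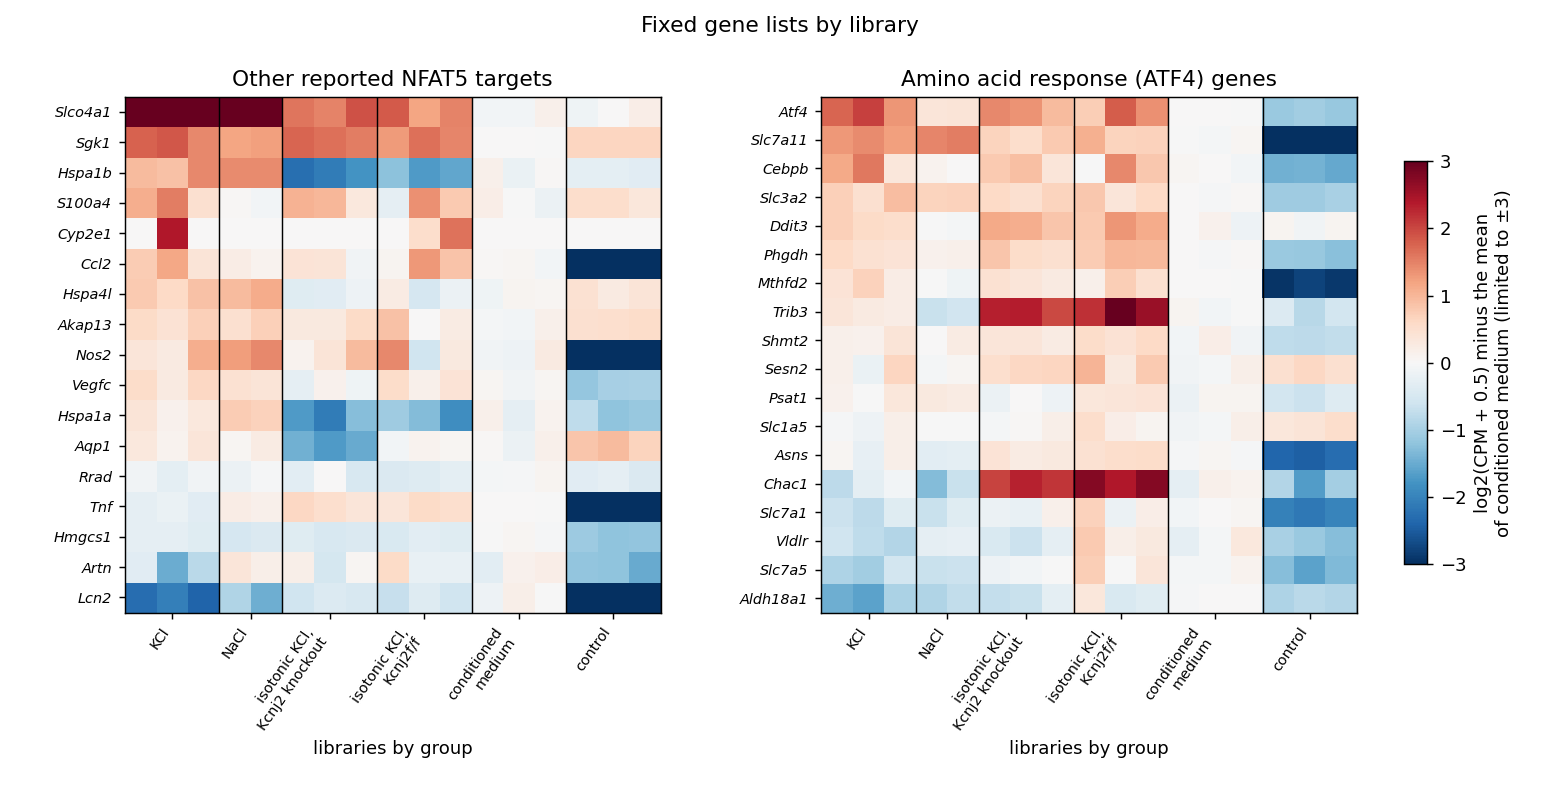
Other reported NFAT5 targets (left) and amino acid response genes (right) by library, as log2(CPM + 0.5) minus the mean of conditioned medium alone, limited to 3 in either direction. Slco4a1 is high in all KCl and NaCl libraries and intermediate with isotonic KCl, while Trib3 and Chac1 are highest with isotonic KCl.

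Other genes of osmolyte uptake and metabolism, a list of 22 with 17 tested, mostly did not pass. Miox, which breaks down myo-inositol, and Chdh, which makes betaine from choline, had under 3 counts in every library. Against isotonic KCl, 2 rose and 1 fell with KCl, beside 12.3% of all genes called higher and 15.4% lower. With NaCl 1 rose, beside 8.58% of all genes called higher. The gene that rose in both was Pnpla6, a phospholipase that releases glycerophosphocholine (log2 fold change 0.45, edgeR adjusted p = 0.029 with KCl and 0.94, edgeR adjusted p = 9.18e-04 with NaCl). Akr1a1, an aldehyde reductase related to Akr1b3, rose with KCl (0.34) and the amino acid transporter Slc38a1 fell (-0.65). The list's median was 0.20 with KCl and 0.12 with NaCl. These counts were small and moved with the settings, to 0 rises with KCl without the low-count filter and to 4 rises with NaCl without Kcnj2f/f library 1. Against conditioned medium alone, 3 rose and 3 fell with KCl, led by Akr1a1 (0.75) and Slc38a1 (-0.94), and 5 rose and 3 fell with NaCl, led by Akr1a1 (0.47) and the glycerophosphodiesterase Gdpd5 (-1.78), which removes glycerophosphocholine, where 53.9% and 28.7% of all genes were called in either direction. Gdpd5 levels were low, at 0.614 CPM with NaCl against 2.17 CPM with medium alone. Conditioned medium against control raised 4 and lowered 7, beside 27.2% and 26.4% of all genes, among them the choline transporter Slc44a1 (1.06) and the taurine synthesis enzyme Csad (-1.38).

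Genes closely related to the members by sequence family were checked as a comparison, 12 of 20 being tested, and Slc5a1, Slc5a2, Slc6a11 and Slc38a5 had under 3 counts in every library. The aldo-keto reductase Akr1b8 rose with KCl (0.81, edgeR adjusted p = 2.47e-05) and NaCl (1.10, edgeR adjusted p = 1.16e-05) above isotonic KCl, and among SNAT2 relatives Slc38a7 (-0.79), Slc38a9 (-0.69), Slc38a6 (-0.45) and Slc38a1 (-0.65) fell with KCl. Slc38a4, another of them, was 0.98 with KCl and not called (edgeR adjusted p = 0.143), and rose with NaCl (log2 fold change 1.5, edgeR adjusted p = 0.043), while Slc38a10 was -0.25 with KCl and not called. Slc38a4 levels were low, at 1.3 CPM with NaCl against 0.45 CPM in Kcnj2f/f cells. In all, 2 rose and 4 fell with KCl, beside 12.3% of all genes called higher and 15.4% lower. With NaCl 2 rose, beside 8.58% of all genes called higher. No fall was called with KCl in a fit of the 2 groups alone. Of the 5 NFAT family genes, Nfat5 was the 1 called higher with either salt against isotonic KCl, and in each case the median of the 5 was positive (0.40 and 0.70). These Nfat5 calls were lost in the settings given above. Nfatc2, a calcium-regulated member, fell with conditioned medium to 2.64 CPM, against 24.8 CPM in control cells (log2 fold change -3.24, edgeR adjusted p = 2.71e-09). It was lower again than with medium alone with isotonic KCl, at 0.529 CPM (-2.35, edgeR adjusted p = 0.00125). The same held with hypertonic KCl, at 0.835 CPM (-1.67, edgeR adjusted p = 1.54e-04), and with NaCl, at 0.953 CPM (-1.45, edgeR adjusted p = 0.00151).

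Another list held 20 genes whose products have been reported to regulate NFAT5. Against isotonic KCl, 5 rose and 4 fell with KCl, beside 12.3% of all genes called higher and 15.4% lower. With NaCl 4 rose and 0 fell, beside 8.58% and 10.7% of all genes. Nup88, a nuclear pore protein, rose with both salts (0.52 with KCl and 0.50 with NaCl), and Parp1, a poly(ADP-ribose) polymerase, fell with KCl (-1.06). The kinase gene Map2k3 rose with KCl (0.64) and its substrate p38 alpha, Mapk14, fell (-0.62). The median was 0.10 with KCl and 0.31 with NaCl. Without 1 library the rises numbered 4 to 8 with KCl and 1 to 10 with NaCl, the most without Kcnj2f/f library 1. Against conditioned medium alone, 4 rose and 10 fell with KCl, and 4 rose and 4 fell with NaCl, where 53.9% and 28.7% of all genes were called in either direction.

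Slc38a2 is also a known target of ATF4, the factor of the amino acid response, so a list of 18 such genes was set beside it. In Kcnj2f/f cells with isotonic KCl, 12 of 18 were higher than with conditioned medium alone, with a median of 0.56, beside 8.20% of all genes called higher. They were led by the pseudokinase gene Trib3 (2.78), the glutathione-degrading enzyme Chac1 (2.94), the serine synthesis enzyme Phgdh (0.93) and Ddit3 (1.12), the gene for CHOP. The number was 6 with total-count scaling. Hypertonic KCl and NaCl were mostly below isotonic KCl on this list, while Slc38a2 was 0.68 and 0.12. KCl had 1 gene higher and 10 lower (median -0.46), beside 12.3% and 15.4% of all genes. NaCl had 1 higher and 13 lower (median -0.78), beside 8.58% and 10.7% of all genes. With NaCl, 6 were lower without either NaCl library, and none was called in a fit of the 2 groups alone, in which KCl had 5 lower. Trib3 averaged 4.68 CPM with KCl and 2.25 CPM with NaCl, against 25.7 CPM with isotonic KCl. Against conditioned medium alone, 7 rose and 4 fell with KCl and 2 rose and 5 fell with NaCl, beside 53.9% and 28.7% of all genes called in either direction. Conditioned medium against control raised 15 and lowered 2, beside 27.2% and 26.4% of all genes. The part of this response in the Slc38a2 levels was not tested.

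Stromal markers, a group of 8, had summed levels of 332 to 509 CPM with KCl and 528 to 587 with NaCl, against 273 to 539 CPM in Kcnj2f/f cells. None of the 8 was at 0 in any of these groups, and 0 were called with KCl. With NaCl, Pdgfra (log2 fold change 0.85, edgeR adjusted p = 0.00477) and Pdgfrb (0.62, edgeR adjusted p = 0.0307) were called higher. Neutrophil markers, a group of 10, had summed levels of 38.8 to 46.9 CPM with KCl and 58.7 to 59.5 with NaCl, against 114 to 169 CPM in Kcnj2f/f cells, with 1, 4 and 2 of the 10 at 0 in these groups. The 1 gene of the list called lower was the receptor gene Csf3r (log2 fold change -2.64, edgeR adjusted p = 1.56e-07 with KCl and -1.75, edgeR adjusted p = 8.25e-05 with NaCl), while S100a9 was higher with KCl (log2 fold change 1.58, edgeR adjusted p = 0.017) and S100a8 was 0.44 and not called. Dendritic cell markers, a group of 7, had summed levels of 48.9 to 59.1 CPM with KCl and 50.8 to 54.7 with NaCl, against 41.7 to 73.0 CPM in Kcnj2f/f cells, with Siglech at 0 in all of these. Among them Xcr1 was higher with KCl, at 17.3 CPM against 3.47 CPM in Kcnj2f/f cells (log2 fold change 2.33, edgeR adjusted p = 2.21e-04), and Clec9a was higher with KCl (3.23, edgeR adjusted p = 0.00393) and NaCl (2.58, edgeR adjusted p = 0.0375) at levels under 1 CPM. The part of these markers in the results was not tested.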

How the data were processed

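Raw counts by Ensembl gene, 1 column for each library, were used as the authors deposited them. No aligner, counting program, build or strandedness is stated in the labels or headers, and the submitters' processing notes name DESeq2 1.30.1 without a role. Of 55401 identifiers, 28418 had 0 counts everywhere, and the 260 without annotation held 0.0121% of counts. Symbols, positions and lengths (longest protein-coding transcript) came from GENCODE M21 on GRCm38, and promoters from RefSeq.

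Tests used edgeR 4.0.16 under R 4.3.3 (quasi-likelihood, robust, TMM, default filter), Benjamini-Hochberg adjusted over all genes of a comparison, at a threshold of 0.05. The 11 C57BL/6J libraries were fitted together (14519 genes), the 6 isotonic ones alone (12782), and all 17 together (14676) for comparisons of isotonic with C57BL/6J groups. The script was tested on simulated data. Levels are CPM scaled by TMM over all 17 libraries. The labels do not say whether replicates came from separate animals or cultures, so p-values reflect only differences among these libraries, which may be technical. All 16 replicate pairs differed beyond sampling noise, with chi-square values of 2.05 to 133 for each degree of freedom. Alternatives were DESeq2 1.42.0, other scalings and filters, other sets of libraries, each library left out, a replicate block and the length slope as a covariate.

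The members and lists were chosen with earlier results of these data known. Named besides the members are up to 4 called genes of each list by smallest p, and the 3 genes most like each member among genes with at least 5 CPM in a group. 1 called gene that this rule would name is not reported here.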

Additional observations from a re-analysis of the deposited data

How the results depend on the processing

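Over all alternatives, the log2 fold changes of the 6 members kept direction and side of the threshold in 589 cases, passed it newly in 33, lost it in 30 and changed sign in 26.

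Counts of called members or genes that moved by over 1.5 times were as follows. With the length slope as a covariate, members called were 6 for conditioned medium against control, 1 for KCl against NaCl, 2 for Lyz2-Cre-Kcnj2f/f against Kcnj2f/f and 5 for isotonic KCl against medium alone, and genes called were 4716 for KCl against medium alone, 144 for KCl against NaCl, 1153 for knockout against Kcnj2f/f and 6627 for KCl against isotonic KCl. With the 2 groups fitted alone, members called were 5 for medium against control and 0 for KCl against NaCl and for NaCl against isotonic KCl, and genes called were 6245 (NaCl against medium alone), 8 (KCl against NaCl), 1218 (KCl against isotonic KCl), 2 (NaCl against isotonic KCl) and 411 (isotonic KCl against medium alone). Medium against control had 4 members called with the stricter filter and 4 with total counts. KCl against NaCl had 1299 genes called with all 17 libraries. Knockout against Kcnj2f/f had 177 genes called with DESeq2, 272 with all 17 libraries and 12 with no filter.

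The replicate numbers did not pair the libraries by the rule used, which asks for every same-number pair over 0.1 (residual correlation over 0.1 among C57BL/6J libraries in 4 of 15 pairs that share a number and 0 of 30 that do not, and among isotonic ones in 1 of 3 and 3 of 6). With a replicate block, members called were 6 for medium against control (2 without it) and 6 for KCl against NaCl (3 without it), genes called for the knockout 0, and its Nfat5 value 0.07.

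Without 1 library, genes called ran from 6755 to 6867 (medium against control), 1081 to 5589 (isotonic KCl against medium), 6809 to 8840 (KCl against medium), 3120 to 4365 (KCl against isotonic KCl), 960 to 6989 (KCl against NaCl), 0 to 14 (knockout), 2224 to 3465 (NaCl against medium) and 692 to 6175 (NaCl against isotonic KCl). Members called ran from 2 to 3, 3 to 4, 5 to 5, 4 to 5, 2 to 6, 0 to 0, 5 to 6 and 3 to 5 in the same order.

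Signs changed as follows. For Slc6a6, KCl against medium was -0.10 with total counts and -0.21 to 0.25 without 1 library, KCl against NaCl 0.42 and the knockout 0.21 with the slope covariate, the knockout -0.40 to 0.33 without 1 library (0.03 without knockout library 1 and 0.33 without Kcnj2f/f library 1), KCl against isotonic KCl -0.11 to 0.64 (-0.08 without Kcnj2f/f library 2), and isotonic KCl against medium 0.42 with the covariate and -0.53 to 0.22 without 1 library (0.03 without medium library 3, 0.04 without Kcnj2f/f library 3). For Nfat5, medium against control was -0.13 with total counts, KCl against NaCl 0.43, the knockout 0.29 and isotonic KCl against medium 0.28 with the covariate, the knockout -0.29 to 0.42 without 1 library (0.08 and 0.02 without knockout libraries 1 and 2), and isotonic KCl against medium -0.58 to 0.15. Slc5a3 for KCl against NaCl and Slc38a2 for NaCl against isotonic KCl were -0.02 with the covariate. Akr1b3 for isotonic KCl against medium was -0.14 with the covariate, -0.15 with total counts and -0.06 to 0.12 without 1 library. Total counts moved the median of all genes by -0.34 (medium against control), -0.21 (KCl against medium), -0.17 (isotonic KCl against medium), -0.14 (KCl against NaCl) and 0.11 (NaCl against isotonic KCl). Causes of these shifts were not tested.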
